A study of Mus musculus with 24 samples.

Results

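The genes described here are 10 transcription factors that pattern the pharyngeal endoderm, the epithelial lining of the embryonic throat: Pax1, Pax9, Foxa1, Foxa2, Foxe1, Nkx2-1, Nkx2-3, Nkx2-5, Hhex and Gcm2. They were chosen by name, as known regulators of that lining, and all 10 were found among the 26611 gene identifiers of the count table. The data are RNA-seq read counts from 24 libraries of polyadenylated RNA from pharyngeal arches 1 and 2 of female C57BL/6 mouse embryos at E10.5, with 4 libraries for each of 6 genotypes. The series asks how loss of Kat6a (Moz), which encodes a histone acetyltransferase, and of Dlx5, which encodes a homeodomain factor of the lower jaw primordium, affects craniofacial development.

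The groups were Kat6a homozygous (Kat6a -/-, Dlx5 +/+), Kat6a heterozygous (Kat6a +/-, Dlx5 +/+), Dlx5 heterozygous (Kat6a +/+, Dlx5 +/-), Dlx5 homozygous (Kat6a +/+, Dlx5 -/-), double heterozygous (Kat6a +/-, Dlx5 +/-) and wild type (+/+ for both genes). No group received a treatment, and the labels give the mutant alleles only as a minus sign. Embryos came from 2 mouse facilities, recorded as batches. All 4 Kat6a homozygous and all 4 wild type libraries were in batch 2, together with replicates 1 to 3 of Kat6a heterozygous and of Dlx5 heterozygous and replicate 1 of double heterozygous. All 4 Dlx5 homozygous libraries were in batch 1, with replicates 2 to 4 of double heterozygous and replicate 4 of each single heterozygote. Dlx5 homozygous libraries therefore shared no batch with wild type.

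Libraries held 10.4 to 28.2 M counted reads, the highest being wild type replicate 1 and the next highest library reaching 16.7 M reads. Gene-level counts did not mark the deletions: Kat6a averaged 227 ± 14.6 CPM (reads relative to the library total after TMM scaling) in libraries labelled Kat6a homozygous and 201 ± 40.6 CPM in wild type, and Dlx5 averaged 62.5 ± 5.11 CPM in libraries labelled Dlx5 homozygous and 69.3 ± 6.78 CPM in wild type (SD, n = 4 each). Dlx5 fell in libraries labelled Kat6a homozygous, to 37.9 ± 3.29 CPM (SD, n = 4), at an adjusted p of 1.47e-07 in edgeR and a log2 fold change of -0.87 (SE 0.08), below the level in libraries labelled Dlx5 homozygous. Directions below therefore refer to libraries by their labels. Arch mesenchyme markers were abundant in every library, with Twist1 at a mean of 115 and Prrx1 at 110 CPM per kilobase over all libraries, and so were epithelial markers, with Cldn6 at 55.1 and Krt18 at 38.6 CPM per kilobase. The summed level of 12 neuron markers reached 243 to 450 CPM in replicate 2 of Kat6a homozygous, Kat6a heterozygous and wild type, 326 CPM in Dlx5 heterozygous replicate 2, and 99.2 to 247 CPM in double heterozygous libraries. In the other 16 libraries it lay between 17.5 and 106 CPM.

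The pharyngeal endoderm forms outpocketings, the pouches, that meet the surface ectoderm between the arches and give rise to the thymus, the parathyroids and the lining of the middle ear, while the thyroid buds from its floor. Pax1 and Pax9 are paralogous paired-box factors of the pouches, and Pax9 is also active in neural crest mesenchyme of the face, where it is needed for teeth and palate. Foxa1 and Foxa2 are forkhead factors of endoderm in general, and Foxa2 also marks floor plate and notochord. Foxe1, Nkx2-1 and Hhex are, with Pax8, the factors of the thyroid primordium. Foxe1 is also found in oral ectoderm, Nkx2-1 in ventral forebrain and lung, and Hhex in endothelium and blood progenitors. Nkx2-3 and Nkx2-5 are NK2 homeodomain factors of pharyngeal endoderm and, for Nkx2-5, of the heart. Gcm2 is the defining factor of the parathyroid.

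Windows around a transcription start of the paralogs Pax9 and Pax1 are shown because Pax9 was the only regulator whose difference from wild type passed the test in any genotype, and Pax1 its closest relative. Each runs from 250 bases before to 50 bases after the start in RefSeq on GRCm38.p6, plus strand, at chr12:56695221-56695520 for Pax9 and chr2:147364744-147365043 for Pax1. Both starts lie inside the gene's full span, which begins at chr12:56691693 for Pax9 and chr2:147361930 for Pax1. Capitals mark a match to CAAGTG, the core of sites bound by NK2 homeodomain factors, here on the minus strand.
Pax9: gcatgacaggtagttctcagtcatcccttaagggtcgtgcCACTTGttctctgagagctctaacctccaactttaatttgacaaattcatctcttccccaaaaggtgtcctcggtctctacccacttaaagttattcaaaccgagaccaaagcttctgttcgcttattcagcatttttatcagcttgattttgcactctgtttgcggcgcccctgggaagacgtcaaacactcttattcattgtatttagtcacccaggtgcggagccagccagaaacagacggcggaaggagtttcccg
Pax1: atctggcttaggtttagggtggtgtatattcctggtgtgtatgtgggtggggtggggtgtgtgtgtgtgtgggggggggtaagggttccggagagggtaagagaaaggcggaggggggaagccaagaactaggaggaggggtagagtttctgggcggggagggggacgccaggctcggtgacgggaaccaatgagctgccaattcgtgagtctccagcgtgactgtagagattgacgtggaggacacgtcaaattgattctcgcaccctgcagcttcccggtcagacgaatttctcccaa
The Pax9 window had a GC content of 47.0% and the Pax1 window of 57.3%, against a median of 52.7% over all windows. Windows were found for 9 of the 10 regulators, 11 windows in all, and Foxe1 had none. CAAGTG, searched on both strands, occurred in the windows of Pax9, 210 bases before the start, and of Gcm2, and in 13.6% of 32851 windows of all genes. The forkhead core TGTTTAC occurred in the window of Foxa1 alone among the regulators and in 3.65% of all windows. TAATTA, a core bound by homeodomain factors such as those of the Dlx family, occurred in none of the 11 windows and in 5.29% of all windows. None of the 3 motifs is contained in another, and a match describes the sequence only.

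Of the regulators, 7 were sequenced deeply enough to be tested, and 3 (Nkx2-1, Nkx2-5 and Gcm2) fell below the filter on low counts. In wild type, levels per kilobase of transcript placed Foxe1 first at 5.13 ± 1.03 CPM per kilobase, followed by Nkx2-3 at 3.51 ± 0.85, Pax9 at 3.19 ± 0.20, Hhex at 2.29 ± 0.44, Pax1 at 2.06 ± 0.38, Foxa1 at 2.04 ± 0.20 and Foxa2 at 1.69 ± 0.55 (SD, n = 4). Neighbours in that order overlapped between libraries except Pax9 over Hhex and Foxa2 over Nkx2-5, which followed at 0.325 CPM per kilobase. In double heterozygous libraries Pax9 came first at 4.97 CPM per kilobase, ahead of Foxe1 at 4.79 CPM per kilobase. Pax9 was also ahead of Foxe1 in Kat6a heterozygous (3.79 against 3.63) and Dlx5 homozygous libraries (4.09 against 4.05). Their ranges overlapped in each of these groups. Foxe1 came first in Kat6a homozygous and Dlx5 heterozygous libraries, as in wild type. Foxe1 spanned a 5.18-fold range over the 24 libraries, against 1.79-fold for Foxa1 and 2.12-fold for Pax9.

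**Figure D1:**
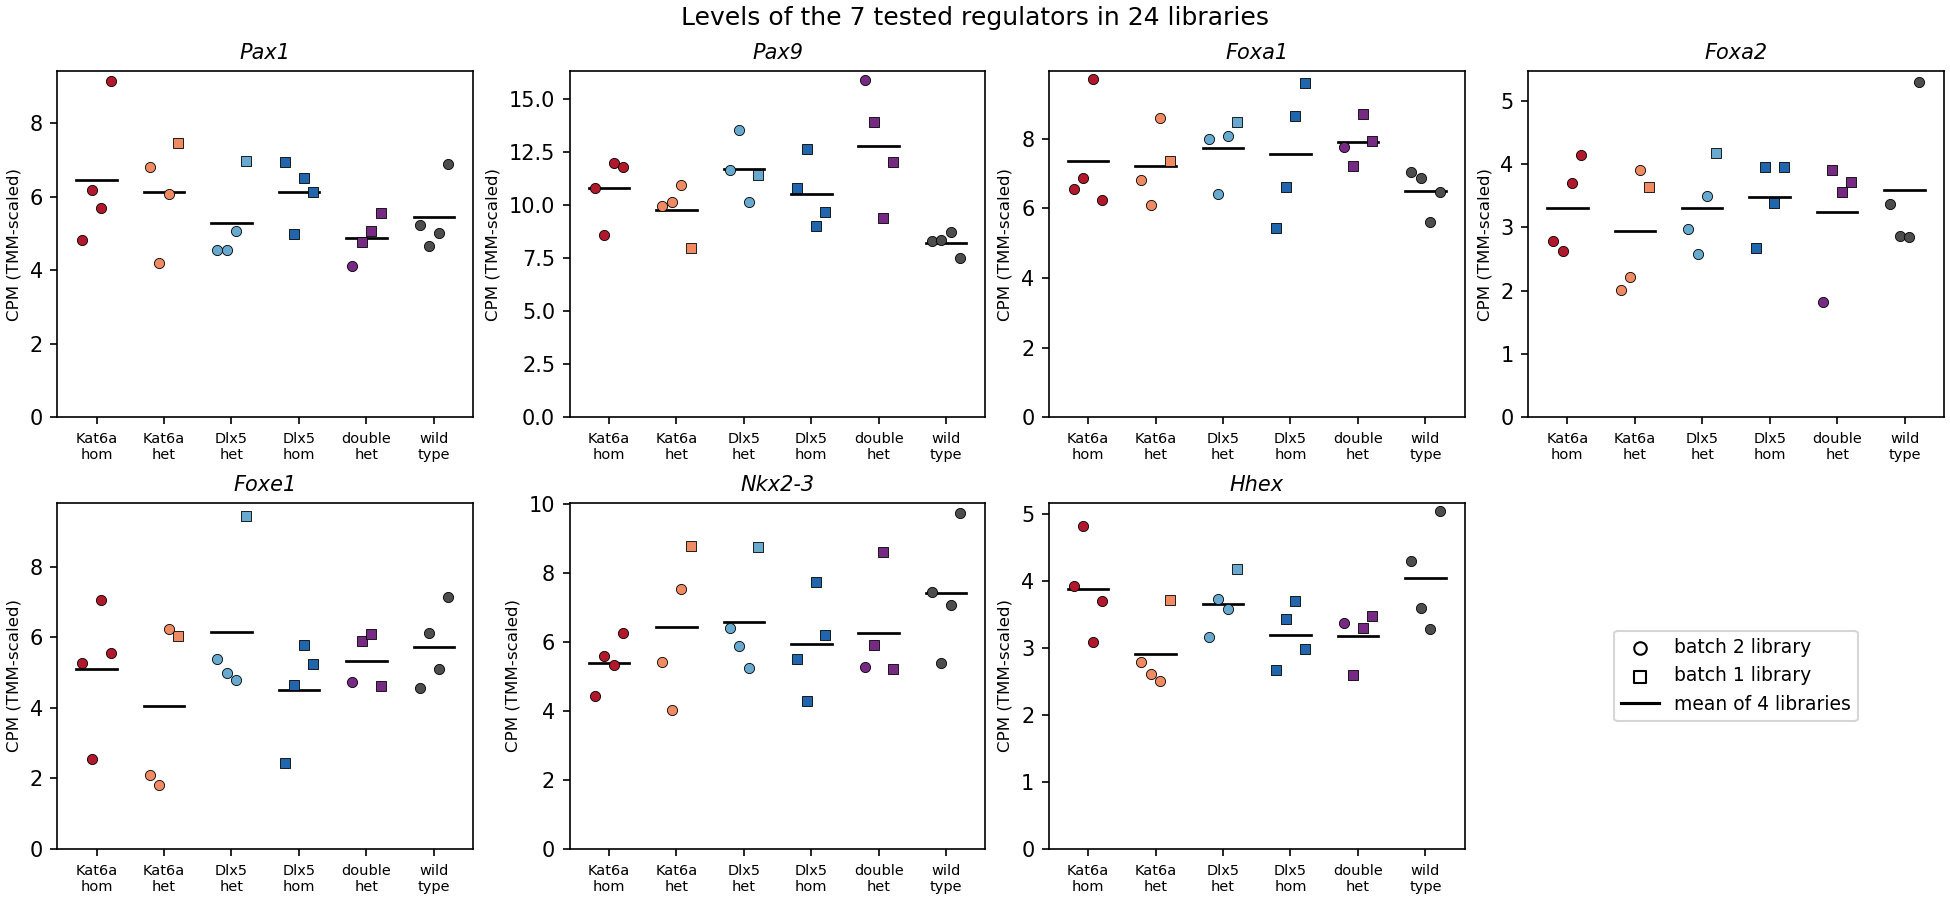
TMM-scaled CPM of the 7 tested regulators in each of the 24 libraries, by genotype, with circles for batch 2, squares for batch 1 and a bar at the mean of 4. Pax9 lay at 7.48 to 8.73 CPM in wild type and above that range in all Dlx5 heterozygous, Dlx5 homozygous and double heterozygous libraries, while the other 6 regulators mostly overlapped with wild type.

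Pax9 rose in double heterozygous embryos and was the only regulator of the 10 called in any comparison with wild type. It stood at 15.9, 13.9, 9.39 and 12.0 CPM in double heterozygous libraries, against 8.28, 8.34, 8.73 and 7.48 CPM in wild type. Every double heterozygous library lay above every wild type library, and the spread among the mutants, 2.76 CPM (SD), was wider than the 0.523 CPM of wild type. The log2 fold change was 0.84 (SE 0.16), a 1.78-fold difference with a 95% interval of 1.42 to 2.24, at an adjusted p of 0.0202 in edgeR's quasi-likelihood test with Benjamini-Hochberg adjustment over 14506 genes. In that comparison 65 genes, 0.448% of those tested, were called in either direction, and Pax9 was 1 of the 7 regulators tested, ranking at place 13 by p. Without double heterozygous replicate 1 edgeR called 1 gene in all. The call depended on the batch term and on single libraries. Without the batch term the log2 fold change was 0.64 (adjusted p 0.0991), and with batch 2 libraries alone, where a single double heterozygous library remained and was assumed to vary like the other groups, it was 0.94 (adjusted p 0.0811). The adjusted p was also 0.428 without double heterozygous replicate 1, 0.0709 without Kat6a heterozygous replicate 4 and 0.0562 without wild type replicate 4. Whether more cells with Pax9 or more Pax9 RNA per cell underlies its level cannot be told apart in bulk tissue, and the same holds for every regulator below.

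Pax9 values in the other mutant groups lay on the same side without passing the test. In Dlx5 heterozygous libraries they were 11.6, 13.5, 10.1 and 11.4 CPM, and in Dlx5 homozygous libraries 10.8, 12.6, 8.99 and 9.67 CPM, both entirely above the wild type range. In Kat6a homozygous libraries they were 10.8, 8.56, 12.0 and 11.8 CPM and in Kat6a heterozygous libraries 9.97, 10.1, 10.9 and 7.98 CPM, and in each of these groups 1 library lay within the wild type range. On the log2 scale the differences were 0.58 (SE 0.14, adjusted p 0.151, edgeR) for Dlx5 heterozygous, 0.63 (SE 0.18, 0.255) for Dlx5 homozygous, 0.39 (SE 0.13, 0.164) for Kat6a homozygous and 0.31 (SE 0.14, 0.396) for Kat6a heterozygous libraries against wild type. DESeq2 called the Dlx5 heterozygous difference at 0.58 with an adjusted p of 0.0476. All of these comparisons share the same 4 wild type libraries, whose Pax9 values were also the least spread of any group.

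The double heterozygous value of Pax9 was close to the sum of the values of both single heterozygotes. The non-additive part, the double heterozygous log2 level minus both single heterozygous levels plus wild type, was -0.06 (SE 0.19, 95% interval -0.45 to 0.33, adjusted p 0.972, edgeR), in a test that called 1 gene of all tested (0.00689%). That interval holds departures of either sign. Dlx5 homozygous libraries differed from double heterozygous libraries by -0.20 (SE 0.14, interval -0.48 to 0.08, adjusted p 0.778), where edgeR called 0 genes (0%), 1042 had an unadjusted p under 0.05 and DESeq2 called 7. With batch 1 libraries alone edgeR called 154 genes there, 145 of them lower in Dlx5 homozygous libraries, and Pax9 was not among them. Kat6a homozygous libraries differed from Kat6a heterozygous libraries by 0.08 (SE 0.14, interval -0.20 to 0.36, adjusted p 0.928).

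Since Pax9 marks mesenchyme as well as pouch endoderm, its levels were set beside lists of other genes. The summed level of 14 arch mesenchyme genes ranged from 1477 to 1850 CPM in double heterozygous libraries and from 1511 to 1789 CPM in wild type, so the groups overlapped. Foxf2 and Foxl1, forkhead genes of arch mesenchyme, rose in double heterozygous libraries. Foxl1 averaged 5.51 ± 1.75 CPM in double heterozygous and 2.75 ± 0.64 CPM in wild type libraries (SD, n = 4 each; log2 fold change 1.47, SE 0.29, adjusted p 0.0221, edgeR). Foxf2 averaged 30.6 ± 6.88 CPM in double heterozygous and 21.2 ± 4.55 CPM in wild type libraries (log2 fold change 0.76, SE 0.17, adjusted p 0.0406). Neither was called without the batch term or within the shared batch, and Foxf2 was also lost with no filter on low counts and with the replicate number as a block. With 1 library left out in turn Foxl1 was called in 19 of 24 fits and Foxf2 in 11 of 24. Foxl1 was lost when the library left out was replicate 1, 2 or 4 of the double heterozygotes or replicate 4 of Kat6a heterozygous or wild type, and Foxf2 without each of these and 8 others, with adjusted p of up to 0.428 and 0.625 (edgeR). The other 12 mesenchyme genes, among them Msx1, Prrx1 and Twist1, were not called. Of all 14, 8 had positive and 6 negative log2 fold changes in double heterozygous libraries. Over the 24 libraries, with group means and batch removed, Pax9 correlated with the mesenchyme list at r = 0.47 (Spearman 0.43, r = 0.41 without the 2 libraries farthest from the median). With other lists of 4 or more tested genes, apart from mesenchyme, Pax9 had no r above zero. Covariation with mesenchyme was not particular to Pax9, as Foxe1 had r = 0.50 with that list (Spearman 0.50, r = 0.34 without 2 libraries). The single genes most like Pax9 across libraries were Thbd, which encodes thrombomodulin (r = 0.81), and Slc2a5, a fructose transporter gene (r = 0.70), followed by a gene without a symbol (r = 0.70), Maf (r = 0.69) and Pdzrn3 (r = 0.68). Libraries share batch and dissection, so these values describe covariation and nothing more.

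Of the nearest neighbours of Pax9 on chromosome 12, only Slc25a21 and Mbip were tested, and neither was called against wild type. Nkx2-1, Nkx2-9, Sfta3-ps and C87198 fell below the filter. Pax9 lies at chr12:56691693-56712824, 155 kb from Nkx2-1 and 828 kb from Foxa1. Slc25a21, which overlaps the end of Pax9, had a log2 fold change of -0.04 (adjusted p 0.973, edgeR) in double heterozygous against wild type libraries. Mbip, on the far side of Nkx2-1, had -0.06 (adjusted p 0.862). Whether counting used strand is not known from the labels, so the division of reads between Pax9 and Slc25a21 is uncertain in the stretch they share.

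Pax1, the paralog of Pax9, was not called in any genotype. It stood at 4.10, 4.77, 5.07 and 5.54 CPM in double heterozygous libraries, against 5.23, 4.66, 5.01 and 6.89 CPM in wild type, and these ranges overlapped. Its log2 fold change was -0.49 (SE 0.22, adjusted p 0.331, edgeR), -0.15 without the batch term, and with batch removed every double heterozygous value lay below every wild type value. Removing batch moves the batch 1 libraries by a single fitted value and leaves wild type in place. The share of all genes that separate in this way was not counted. The ratio of Pax9 to Pax1 counts was 3.87, 2.91, 1.85 and 2.16 in double heterozygous libraries and 1.58, 1.79, 1.74 and 1.09 in wild type. Every double heterozygous ratio lay above every wild type ratio, as a description of counts chosen with the difference in view. In Kat6a homozygous libraries Pax1 reached 9.16 CPM in replicate 4 and lay at 4.83 to 6.18 CPM in the other 3, and the log2 difference from wild type was 0.24 (SE 0.17, adjusted p 0.563). Pax1 was most like Tspan32 (r = 0.82) and Coq2 (r = 0.81) across libraries, followed by Gata1 (r = 0.80), Gm20762 (r = 0.80) and Ermap (r = 0.80). Gata1 and Ermap are genes of the red blood cell lineage.

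**Figure D2:**
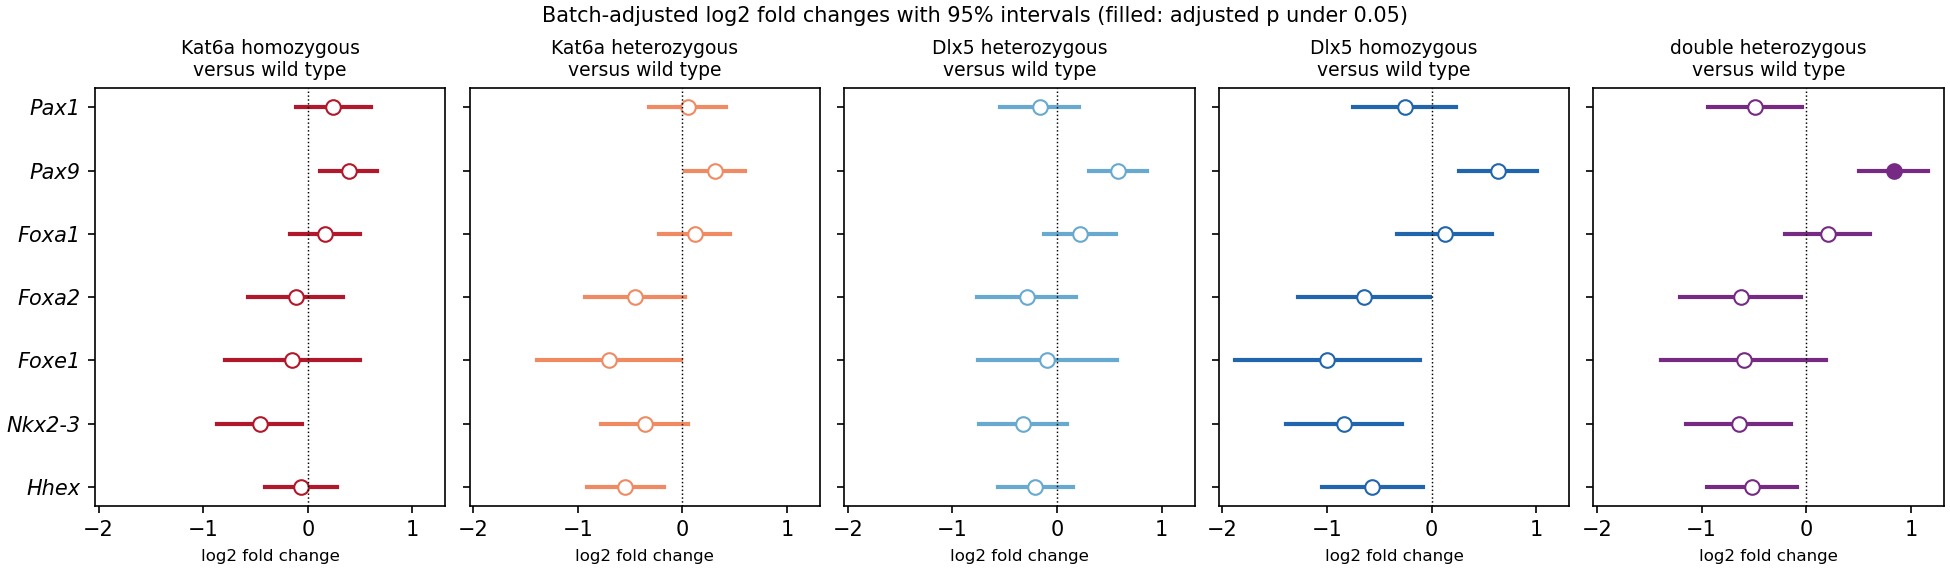
Batch-adjusted log2 fold changes against wild type of the 7 tested regulators in 5 mutant groups, with 95% intervals; filled points have an adjusted p under 0.05. The filled point is Pax9 in double heterozygous libraries at 0.84, and Pax9 lies right of 0 in all 5 panels.

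The forkhead factors of the endoderm were measured at low levels in all groups. Foxa2 stood at 1.82, 3.91, 3.55 and 3.72 CPM in double heterozygous libraries, against 3.37, 2.86, 2.85 and 5.29 CPM in wild type. The groups overlapped, and the low double heterozygous library was replicate 1, the only one in batch 2. Its log2 fold change was -0.63 (SE 0.28, adjusted p 0.336, edgeR), and with batch removed every double heterozygous value lay below every wild type value. That separation appeared only after the batch 1 libraries were moved by a single fitted value. Foxa1 stood at 7.75, 7.20, 8.71 and 7.94 CPM in double heterozygous libraries and at 7.06, 6.87, 5.62 and 6.47 CPM in wild type, without overlap. For neither regulator was the share of all genes that separate from wild type counted. The batch-adjusted log2 fold change of Foxa1 was 0.20 (SE 0.20, adjusted p 0.69), and values adjusted for batch overlapped. Over all 5 mutant groups Foxa1 ranged from 0.12 to 0.22 and Foxa2 from -0.64 to -0.115, with no call in either.

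Foxe1 and Hhex, of the thyroid factors, had their lowest mean CPM in Kat6a heterozygous libraries, although their batch-adjusted differences from wild type were lowest in Dlx5 homozygous libraries, at -0.999 and -0.57 on the log2 scale. In Kat6a heterozygous libraries Hhex stood at 2.80, 2.61, 2.51 and 3.73 CPM, against 4.30, 3.60, 3.28 and 5.04 CPM in wild type. Of these 4 mutant libraries, 3 lay below the wild type range. The log2 fold change of Hhex in Kat6a heterozygous libraries was -0.55 (SE 0.18, adjusted p 0.254, edgeR). No gene of the 14506 (0%) was called in that comparison, although 1648 had an unadjusted p under 0.05 and DESeq2 called 80. Without wild type replicate 1, the deepest library, edgeR called 196 genes there, and no regulator among them. In Kat6a homozygous libraries Hhex stood at 3.92, 4.83, 3.10 and 3.70 CPM, 3 of them within the wild type range, and the log2 difference was -0.07 (SE 0.17, adjusted p 0.902). Kat6a homozygous libraries differed from Kat6a heterozygous libraries by 0.48 for Hhex (SE 0.18, adjusted p 0.316), in a comparison where 93 genes (0.641%) were called. Foxe1 split the Kat6a heterozygous libraries, with 2.10 and 1.82 CPM in replicates 1 and 2 and 6.24 and 6.03 CPM in replicates 3 and 4, against 4.55, 6.13, 5.10 and 7.14 CPM in wild type. Its log2 fold change was -0.70 (SE 0.33, adjusted p 0.429).

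Nkx2-3, the NK2 factor measured best, had negative log2 fold changes in all 5 mutant groups and was called in none. It stood at 4.45, 5.59, 5.34 and 6.25 CPM in Kat6a homozygous libraries, against 7.45, 5.39, 7.08 and 9.75 CPM in wild type. The 2 groups overlapped through the lowest wild type library. The log2 fold change was -0.46 (SE 0.20, adjusted p 0.291, edgeR). In Dlx5 homozygous libraries Nkx2-3 stood at 5.52, 4.29, 7.75 and 6.20 CPM, and its difference from wild type, -0.84 on the log2 scale (SE 0.27, adjusted p 0.302), was -0.32 without the batch term.

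Over the 7 tested regulators, batch-adjusted values were below wild type for 5 in Dlx5 homozygous, double heterozygous and Dlx5 heterozygous libraries. In each Kat6a group they were below for 4. Pax1 was among the 5 in Dlx5 homozygous libraries only after batch adjustment, as its mean was 6.14 CPM there and 5.45 CPM in wild type. The share of negative values over all genes was not counted beside these 7 regulators. Against wild type, none was called in Kat6a homozygous (222 genes, 1.53%, called), Kat6a heterozygous, Dlx5 heterozygous (0 genes, 0%, called by edgeR, 1645 at an unadjusted p under 0.05 and 31 by DESeq2) or Dlx5 homozygous libraries (8 genes, 0.0551%, called), and 1 in double heterozygous libraries. At an unadjusted p under 0.05 the number was 2 in Kat6a homozygous, 3 in Kat6a heterozygous, 1 in Dlx5 heterozygous, 5 in Dlx5 homozygous and 5 in double heterozygous libraries, where 13.6%, 11.4%, 11.3%, 9.97% and 13% of all genes reached it. The median log2 fold change of the 7 was -0.57 in Dlx5 homozygous and -0.52 in double heterozygous libraries, against 0.00 and 0.01 over all genes tested, and -0.07, -0.36 and -0.16 in Kat6a homozygous, Kat6a heterozygous and Dlx5 heterozygous libraries, against 0.01 over all genes in each of these 3. Without the batch term the medians in Dlx5 homozygous and double heterozygous libraries were -0.04 and -0.13.

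**Figure D3:**
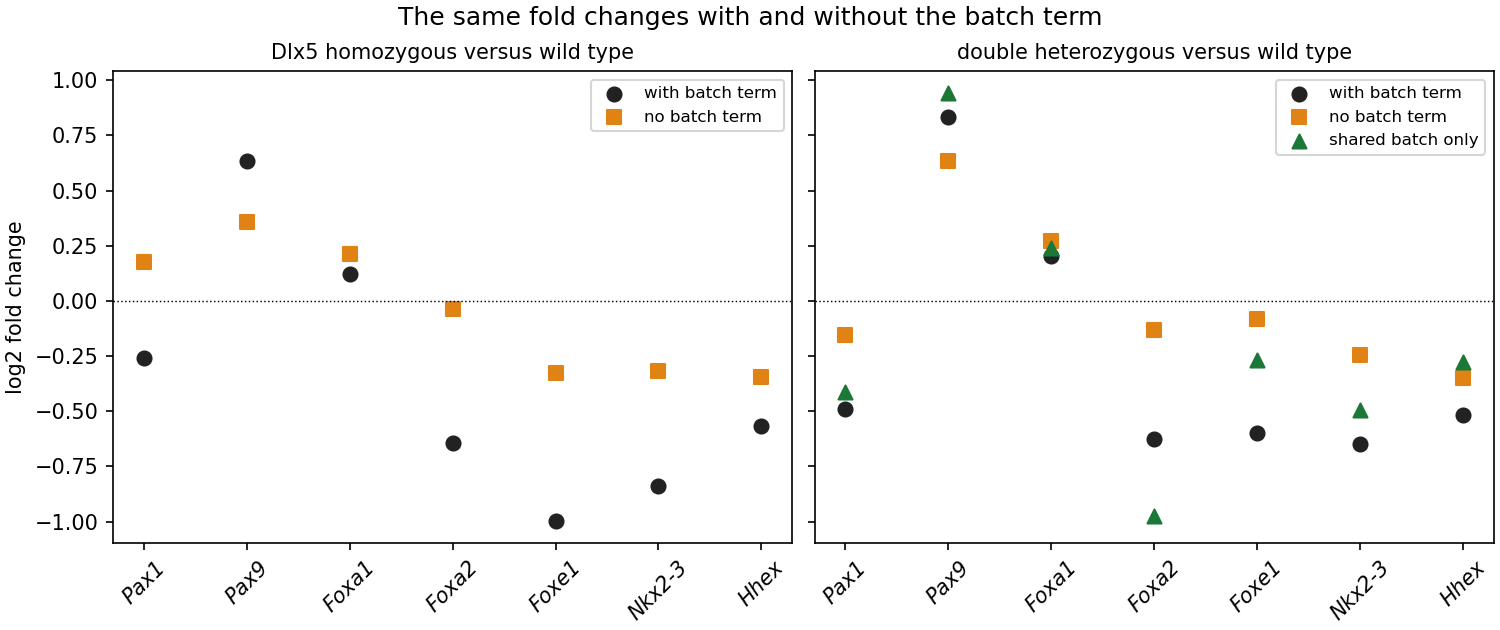
Log2 fold changes of the 7 tested regulators against wild type with the batch term (circles), without it (squares) and, for double heterozygous libraries, with batch 2 libraries alone (triangles). Foxe1 moved to -0.32 without the term, against -0.999 with it, in Dlx5 homozygous libraries, and Pax9 stayed above 0 in each setting.

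The fitted difference between batches, batch 1 minus batch 2, was 0.67 for Foxe1, 0.61 for Foxa2, 0.52 for Nkx2-3 and 0.44 for Pax1 on the log2 scale, and -0.28 for Pax9. None of these was called, and 5 genes of 14506 were. In Dlx5 homozygous libraries Foxe1 stood at 2.42, 4.63, 5.77 and 5.24 CPM, against 4.55, 6.13, 5.10 and 7.14 CPM in wild type. These ranges overlapped, while the batch-adjusted log2 fold change was -0.999 (SE 0.43, adjusted p 0.462, edgeR). Foxa2 was at -0.64 with the term and at -0.04 without it. With batch removed, the Dlx5 homozygous values of Foxe1, Foxa2 and Hhex all lay below wild type. In CPM each of these regulators overlapped with wild type. Removing batch moves all Dlx5 homozygous libraries by a single fitted value per gene and leaves wild type libraries in place. The share of all genes that separate from wild type was not counted, for these or for other regulators described as lying apart. For Dlx5 homozygous libraries genotype and batch cannot be told apart except through the groups that span both.

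The 3 untested regulators were read a few times per library. Nkx2-1 had no read in any of the 4 Kat6a homozygous libraries, a pooled level of 0 CPM with an exact Poisson interval of up to 0.0768 CPM. In wild type it had 38, 3, 0 and 13 reads, a pooled level of 0.849 CPM with an exact Poisson interval of 0.638 to 1.11, which covers counting error only. The pooled Kat6a homozygous level was therefore below that interval, but wild type itself ran from 0 to 38 reads between libraries. Kat6a heterozygous libraries had 7, 1, 0 and 0 reads, Dlx5 heterozygous 0, 1, 10 and 0, Dlx5 homozygous 0, 2, 0 and 1 and double heterozygous 2, 2, 0 and 0. With no filter on low counts, edgeR gave the Kat6a homozygous difference an adjusted p of 0.147. With the filter and without wild type replicate 3, the library with no read, Nkx2-1 passed the filter and had an adjusted p of 0.0313 (edgeR). It also passed with other libraries left out and was not called. Its adjusted p was 0.0958 without wild type replicate 2 and 0.183 without Kat6a homozygous replicate 1 (edgeR). It can pass only through the few libraries where it was high, wild type replicates among them, so these p-values support no difference. Its fitted fold change is no bound in any of these fits.

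Markers of the places where Nkx2-1 is known to act were set beside it. Of 8 thyroid genes only Tg passed the filter, and Pax8, which defines the thyroid primordium, had at most 14 reads in a library. Six3, a gene of the ventral forebrain and anterior placodes, fell in Kat6a homozygous libraries, at 0.374 ± 0.106 CPM against 2.32 ± 0.50 CPM in wild type (SD, n = 4 each; log2 fold change -2.62, SE 0.38, adjusted p 0.00019, edgeR), and in double heterozygous libraries, at 0.904 ± 0.604 CPM against the same wild type level (log2 fold change -1.99, SE 0.41, adjusted p 0.0234). The Kat6a homozygous call held in every setting run, while the double heterozygous one was lost without the batch term, within the shared batch and in 6 of 24 fits that left out 1 library (double heterozygous replicate 1, 2 or 4, Kat6a heterozygous, Dlx5 heterozygous or wild type replicate 4, adjusted p of up to 0.239, edgeR). The summed level of the 8 ventral forebrain genes ranged from 10.8 to 13.5 CPM in Kat6a homozygous and from 12.3 to 15.4 CPM in Kat6a heterozygous libraries, both below the 15.7 to 23.1 CPM of wild type. The ranges of Dlx5 heterozygous (12.4 to 19.5 CPM), Dlx5 homozygous (13.9 to 20.04 CPM) and double heterozygous libraries (12.8 to 16.7 CPM) overlapped with wild type. Rax and Otp, defining genes of the hypothalamus, had at most 2 reads and no read in a library. What part these tissues had in the Nkx2-1 reads was not tested.

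Nkx2-5, read a few times per library, was below every wild type library in CPM in both Kat6a groups. The share of all genes that separate in this way was not counted. It had 3, 3, 2 and 1 reads in Kat6a homozygous and 0, 2, 2 and 2 in Kat6a heterozygous libraries, against 13, 4, 6 and 8 in wild type. The pooled levels were 0.187 CPM (exact Poisson interval 0.0857 to 0.356) in Kat6a homozygous, 0.128 CPM (0.047 to 0.279) in Kat6a heterozygous and 0.487 CPM (0.331 to 0.692) in wild type libraries. The wild type interval overlapped that of Kat6a homozygous but not that of Kat6a heterozygous libraries, and these intervals cover counting error only. With no filter, edgeR gave adjusted p of 0.394 and 0.373 for the Kat6a homozygous and Kat6a heterozygous differences. In Dlx5 heterozygous, Dlx5 homozygous and double heterozygous libraries it had 22, 20 and 17 reads in all, with ranges that overlapped wild type. Gcm2 had 0 to 5 reads in every library and 38 in all, and no difference was detectable at this depth.

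**Figure D4:**
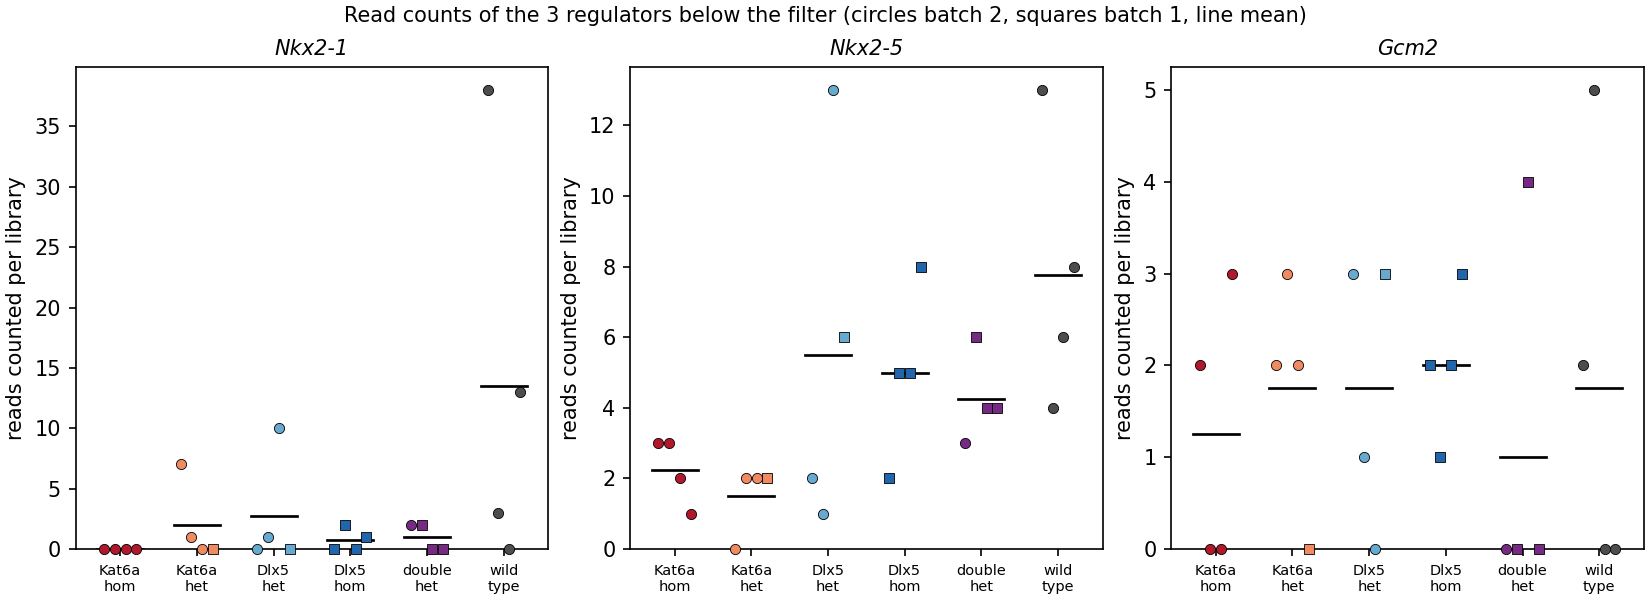
Reads counted per library for Nkx2-1, Nkx2-5 and Gcm2, by genotype, with a bar at the mean of 4 libraries. Nkx2-1 reached 38 reads in 1 wild type library and 0 in all 4 Kat6a homozygous libraries, and Gcm2 never passed 5 reads.

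Other genes of the pouch network showed no call against wild type in any genotype. Of 20 genes in that list, 16 were tested, and 0 passed an adjusted p of 0.05 in edgeR in each of the 5 comparisons. At an unadjusted p under 0.05 there were 3 to 5, where 9.97% to 13.6% of all genes reached it. Eya1, which encodes a transcriptional coactivator of the pouches, had a log2 fold change of 0.08 (SE 0.10) in double heterozygous libraries. Among 11 tested genes of endoderm epithelium none was called either, with 5 at an unadjusted p under 0.05 in double heterozygous libraries, where 13% of all genes reached it. Those tested included Krt18 and Cldn6, which mark epithelium in general. Foxa3, Gata4, Spink1, Ttr, Apoa1 and Rfx6 did not pass the filter. All 11 had negative values in double heterozygous libraries, with a median of -0.46, and 10 of 11 in Dlx5 homozygous libraries, with a median of -0.48. Of 12 surface and oral ectoderm genes, 8 and 9 were negative in these groups, with medians of -0.18 and -0.31. Negative values were therefore not particular to the endoderm epithelium list. Krt18, a keratin, had -0.57 (SE 0.20, adjusted p 0.228), and Cldn6, a tight junction gene, -0.47 (SE 0.21, adjusted p 0.34), in double heterozygous libraries. Without the batch term the medians of the endoderm epithelium list were -0.14 in double heterozygous and -0.13 in Dlx5 homozygous libraries. The summed level of that list ranged from 315 to 463 CPM in double heterozygous and from 346 to 481 CPM in wild type libraries.

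Lists of tissues that share single regulators held few called genes. Of 12 surface and oral ectoderm genes, Foxi2, a forkhead gene of ectoderm, fell in double heterozygous libraries, at 7.997 ± 2.49 CPM against 12.3 ± 1.94 CPM in wild type (SD, n = 4 each; log2 fold change -1.10, SE 0.22, adjusted p 0.0221, edgeR). It was not called without the batch term, within the shared batch or in 5 of 24 fits with 1 library left out (double heterozygous replicate 1, 2 or 4, Kat6a heterozygous or wild type replicate 4, adjusted p of up to 0.428, edgeR). Of 10 endothelial and blood progenitor genes, Cldn5, an endothelial tight junction gene, fell in Dlx5 homozygous libraries, at 12.7 ± 1.75 CPM against 18.5 ± 1.73 CPM in wild type (log2 fold change -0.74, SE 0.15, adjusted p 0.0488). That call was kept in 7 of 24 fits with 1 library left out (Kat6a homozygous replicate 1, 2 or 4, Kat6a heterozygous replicate 1 or 3, Dlx5 heterozygous replicate 3 or Dlx5 homozygous replicate 3; adjusted p of up to 0.320 in the others, edgeR), and was lost without the batch term, with the replicate number as a block and without the replicate 2 libraries of 4 groups that were high in neuron markers. Among mesenchyme genes, Osr2 and Barx1, factors of palate and of molar and jaw mesenchyme, fell in Kat6a homozygous libraries. Osr2 averaged 1.03 ± 0.31 CPM in Kat6a homozygous and 3.46 ± 0.72 CPM in wild type libraries (log2 fold change -1.71, SE 0.32, adjusted p 0.00338). Barx1 averaged 105 ± 10.6 CPM in Kat6a homozygous and 156 ± 22.1 CPM in wild type libraries (log2 fold change -0.56, SE 0.12, adjusted p 0.0218). Neither was called without those 4 libraries, nor without all 6 libraries that had a neuron sum of 243 CPM or more, and with 1 library left out Osr2 was called in 24 of 24 fits and Barx1 in 19 of 24. Barx1 was lost without Kat6a homozygous replicate 2, 3 or 4 or wild type replicate 2 or 4, with an adjusted p of up to 0.0829 (edgeR). No gene of the floor plate and notochord list or the heart and outflow tract list was called against wild type. By comparison, 1 to 3 of each had an unadjusted p under 0.05, where 9.97% to 13.6% of all genes reached it. The 11 tested neuron genes were not called, with 0 at an unadjusted p under 0.05, and their medians ran from -1.72 in Dlx5 homozygous to 1.25 in double heterozygous libraries. Without replicate 2 of Kat6a homozygous, Kat6a heterozygous, Dlx5 heterozygous and wild type, Pax9 differed by 0.82 in double heterozygous libraries (adjusted p 0.0144, edgeR). Without double heterozygous replicates 3 and 4 as well, whose neuron sums were as high, it differed by 0.93 (adjusted p 0.00514, edgeR). Both values are close to that with all libraries or above it. Among the libraries that remained, the neuron sum was still higher in every double heterozygous library than in every wild type library, and its part in the other double heterozygous differences was not tested.

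**Figure D5:**
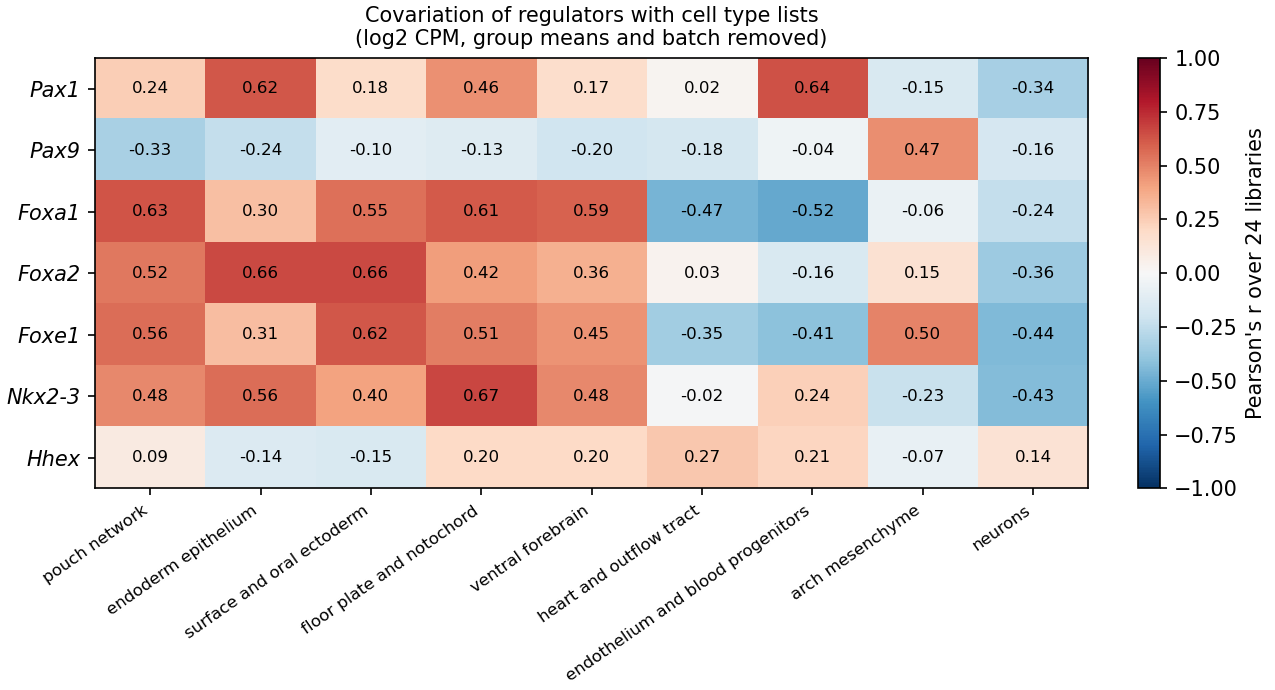
Pearson's r over the 24 libraries between each tested regulator (rows) and the mean of each list (columns), on log2 CPM with group means and batch removed. Foxa2 reached 0.66 with endoderm epithelium and with surface ectoderm, Pax9 was highest with arch mesenchyme at 0.47, and Hhex stayed below 0.30 with every list.

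Within groups the regulators did not vary as 1 block. Foxa1 with Foxe1 and Pax1 with Nkx2-3 had the highest residual correlations, both at r = 0.61, followed by Foxa2 with Foxe1 at r = 0.60. Pax9 ran against Hhex at r = -0.41 and against Nkx2-3 at r = -0.33. Foxe1 was most like Pitx1 (r = 0.90), a homeodomain factor of oral ectoderm and first arch mesenchyme, followed by Ppp1r35 (r = 0.90), Scarf2 (r = 0.89) and Msx1 (r = 0.88). Foxa2 was most like Atp9b (r = 0.89), Tmem54 (r = 0.88), Irf3 (r = 0.88), Klhdc8b (r = 0.84) and Crb3, an epithelial polarity gene (r = 0.84). Hhex was most like Gas2l1 (r = 0.79) and Sod3 (r = 0.76), Nkx2-3 like Dusp12 (r = 0.83), and Foxa1 like Nckipsd (r = 0.78). Among lists, Nkx2-3 was highest with floor plate and notochord genes (r = 0.67, Spearman 0.75), which include Shh, a ligand also made by pharyngeal endoderm. Pax1 was highest with endothelium and blood progenitors (r = 0.64, 0.53 without the 2 libraries farthest from the median) and with endoderm epithelium (r = 0.62, 0.42 without 2 libraries). These are 24 values with 17 degrees of freedom after removal of the group means and batch, given without a test.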

How the data were processed

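The submitters' processing notes name CASAVA 1.8.2, featureCounts and the build mm10, while aligner, annotation and strand setting are not given there or in the labels. The authors deposited raw read counts per gene; 568 of 27179 entries without a gene identifier, with 0.182% to 0.259% of a library's counts, were left out. Of 26611 identifiers, 25275 matched a symbol. Coordinates and promoter windows are from RefSeq on GRCm38.p6.

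Counts were tested with edgeR 4.0.16 in R 4.3.3: filterByExpr by group (14506 genes), TMM scaling, and robust quasi-likelihood fits with a mean per group (6) plus a batch term, 24 libraries together (17 residual degrees of freedom; the common biological coefficient of variation was 0.0896). A gene was called at an adjusted p under 0.05, with Benjamini-Hochberg adjustment over all genes tested. Standard errors come from the test statistic. Log2 CPM had a prior count of 2. Correlations used genes averaging 1 CPM or more and, for a list, the mean of its tested genes.

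The members and lists were chosen with earlier results of these data known. The rule for named genes took the 10 regulators, up to 4 called genes of each list in a comparison and its 2 highest per kilobase as levels, the 5 genes most correlated with each tested regulator (those printed are the first of them), and Kat6a and Dlx5. Other list genes were named, as not called or near 0, after their values were seen.

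Alternatives were DESeq2 1.42.0, RLE scaling, no filter, no batch term, shared batch only, a block for the replicate number, and leaving out each library in turn. Leaving out 4 libraries high in neuron markers (replicate 2 of Kat6a homozygous, Kat6a heterozygous, Dlx5 heterozygous and wild type), or these and double heterozygous replicates 3 and 4, whose sums were as high, was chosen after seeing the data. The labels give no origin of the replicate numbers. Every same-numbered pair's deviations from its group means had a correlation over 0.1 for Kat6a heterozygous and wild type libraries (0.162 to 0.654), for Kat6a homozygous and Kat6a heterozygous (0.104 to 0.604) and for Kat6a heterozygous and Dlx5 heterozygous (0.261 to 0.564); with batch removed this held only for Kat6a heterozygous and wild type (0.183 to 0.661). No replicate pair looked like 1 library deposited again (3.05 to 23.9 times the chi-square of sampling noise). Simulated counts with known changes were used to test the scripts.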

Additional observations from a re-analysis of the deposited data

Results flagged for a closer look

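In groups of 4 libraries, 1 library stood apart from the other 3 in 6 of 59 sets of regulator values. For normally distributed values chance flags about 1 in 20. Foxa2 was 1.82 CPM in double heterozygous replicate 1, against 3.55 to 3.91 CPM in the other 3, and that library was the only one of its group in batch 2. Foxe1 was 9.43 CPM in Dlx5 heterozygous replicate 4, the only batch 1 library of its group, against 4.78 to 5.39 CPM. Nkx2-1 was 0.612 CPM in Kat6a heterozygous replicate 1, against 0 to 0.0791 CPM, and 0.919 CPM in Dlx5 heterozygous replicate 3, against 0 to 0.089 CPM. Nkx2-5 was 0 CPM in Kat6a heterozygous replicate 1, against 0.158 to 0.177 CPM, and Gcm2 was 0.338 CPM in double heterozygous replicate 3, against 0 CPM. The values of Nkx2-1, Nkx2-5 and Gcm2 rest on 0 to 10 reads in these libraries. The rate of 1 in 20 does not hold for such counts, so 6 of 59 cannot be compared with it.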

How the results depend on the processing

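The number of regulators called in Dlx5 heterozygous against wild type libraries was 1 with DESeq2 (Pax9). In double heterozygous against wild type libraries it was 0 without the batch term and 0 within the shared batch, where Pax9 had 0.64 and 0.94 on the log2 scale. Leaving out 1 library gave 0 to 1 regulators called in Kat6a homozygous libraries (Nkx2-1 without wild type replicate 3, the wild type library with no read of it). It gave 0 to 1 in double heterozygous libraries, where Pax9 ranged from 0.71 to 0.93 and was called in 21 of 24 fits. The replicate block changed no regulator's call (Pax9 in double heterozygous libraries 0.83, adjusted p 0.0292, edgeR). The cause of these changes was not tested.

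Directions that turned belonged to values that were not called. Without the batch term, Foxe1 in Dlx5 heterozygous libraries was 0.14 and Pax1 in Dlx5 homozygous libraries 0.18, and with the replicate block Pax1 there was 0.0045. Within the shared batch the non-additive part of Pax9 was 0.10, and 0.17 without the 6 libraries highest in neuron markers. Foxe1 in Kat6a homozygous libraries was 0.11 without those 6 and 0.11 without the 4 replicate 2 libraries among them, where it was 0.035 in Dlx5 heterozygous libraries. Leaving out 1 library, values spanned 0 for Foxa1 (Kat6a homozygous -0.0043 to 0.23, Kat6a heterozygous -0.0068 to 0.18, Dlx5 homozygous -0.021 to 0.25), Foxa2 (Kat6a homozygous -0.25 to 0.11), Foxe1 (Kat6a homozygous -0.35 to 0.064, Dlx5 heterozygous -0.21 to 0.030), Hhex (Kat6a homozygous -0.19 to 0.040), Pax1 (Kat6a heterozygous -0.075 to 0.18) and the non-additive part of Pax9 (-0.13 to 0.080).

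Counts of called genes over all genes moved by over 1.5 times in many settings. Against wild type, leaving out 1 library gave 122 (without Kat6a homozygous replicate 1) to 444 (without wild type replicate 1) for Kat6a homozygous, 0 to 196 for Kat6a heterozygous, 0 to 1 for Dlx5 heterozygous, 0 to 16 for Dlx5 homozygous and 1 to 169 for double heterozygous libraries. It gave 50 to 127 for Kat6a homozygous against Kat6a heterozygous and 0 to 5 for Dlx5 homozygous against double heterozygous libraries. DESeq2 called 80, 31, 38 and 185 for Kat6a heterozygous, Dlx5 heterozygous, Dlx5 homozygous and double heterozygous against wild type, 147 for Kat6a homozygous against Kat6a heterozygous and 7 for Dlx5 homozygous against double heterozygous. Within the shared batch the counts were 98 for Kat6a homozygous, 1 for Kat6a heterozygous and 9 for double heterozygous against wild type (10 without the batch term), 49 for Kat6a homozygous against Kat6a heterozygous and 154 for Dlx5 homozygous against double heterozygous. Without the 4 libraries they were 83, 7, 4 and 138 for Kat6a homozygous, Dlx5 heterozygous, Dlx5 homozygous and double heterozygous against wild type, 38 and 153 for the other two comparisons, and without the 6 libraries 75, 5, 1, 102, 28 and 32. The non-additive part had 0 to 6 called genes over all settings.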
